A study of Homo sapiens with 8 samples.

Results

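The endoplasmic reticulum (ER) folding and stress response set holds 32 genes that fold secreted and membrane proteins or answer when that folding fails. They are a list of names, drawn up with earlier results of these arrays known, and 31 of them had a probe set annotated to that gene alone among the 19775 genes so represented. Each gene was read from its probe set with the highest mean log2 intensity over the 8 arrays. SYVN1 had no such probe set and is not analysed here. CREB3L2 was too dim to be tested, with intensities of 72.9 to 97.9 on cycling and 15.1 to 219 on quiescent arrays, which leaves 30 tested members of 11678 genes tested.

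Proteins that enter the ER are folded by chaperones such as the HSP70 protein BiP, by lectins that bind sugar chains and by enzymes that form disulphide bonds. When unfolded proteins accumulate, 3 sensors in the ER membrane signal to the nucleus. ATF6 is cut to release a transcription factor, IRE1 splices the mRNA of XBP1, and PERK phosphorylates eIF2 alpha, which favours translation of ATF4. ATF6 and XBP1 raise chaperones and ER-associated degradation. ATF4 raises amino acid synthesis genes and CHOP, and it is also reached from amino acid shortage without ER stress. Plasma cells depend on this system, whereas B cells that do not secrete use less of it. Splicing of XBP1, cleavage of ATF6 and translation of ATF4 are not measured by these arrays.

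The cells were RL, an established human B lymphoma line whose labels give t(14,18)+ as genotype, grown for 14 days as multicellular aggregates of lymphoma cells (MALC). They were stained with pyronin Y, an RNA dye, and sorted into a pyronin Y bright fraction called cycling and a pyronin Y dull fraction called quiescent, with 4 arrays each. No agent other than the dye is named, and both fractions come from the same line and culture age. Whether the 4 samples of a fraction are separate cultures is not stated in the labels. The p-values therefore reflect only their spread, which could be technical. In sorted bulk samples, fewer cells of a kind and less RNA per cell cannot be told apart. The sort itself selected for RNA content. The labels give 30 ng of RNA for every sample, and the arrays share a common scaling. A rise or fall below is thus relative to the RNA measured, and amounts per cell were not measured.

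All 9 measured B cell markers passed the intensity filter, with a summed intensity of 79718 to 95359 on cycling and 77119 to 97511 on quiescent arrays. Of 10 T cell, 8 myeloid and 10 stromal and endothelial markers, 4, 2 and 4 passed. The T cell sum of 8327 to 9775 on cycling and 7519 to 10649 on quiescent arrays was almost all LCK, while no group mean of CD3D, CD3E, CD3G, CD2 or CD8A exceeded 132. CD247 was at 413 on cycling and 265 on quiescent arrays and was called lower (limma adjusted p = 0.037), the only T cell marker called. The myeloid sums were 531 to 762 and 530 to 686, and the stromal and endothelial sums 806 to 1308 and 1207 to 1687. MKI67, the proliferation marker, was at 1899 on cycling and 362 on quiescent arrays, and CDKN1B, the CDK inhibitor p27, at 4102 and 8673, in the direction of the labels. RNA integrity was read from control probes at both ends of a transcript. The 3′ over 5′ log2 ratio of ACTB was 2.01 ± 0.20 on cycling and 2.56 ± 0.18 on quiescent arrays (SD, n = 4 each, two-sided exact permutation p = 0.0286, the smallest possible, and 0.0286 adjusted over 2 ratios). For GAPDH it was −0.05 ± 0.09 and 0.11 ± 0.02 (SD, n = 4 each, with the same exact permutation p of 0.0286). The fractions did not overlap in this ratio, which thus moves with every difference below, and its part in them was not tested.

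Promoter sequences were read from RefSeq (GRCh38.p14) for 31 of the 32 members, with PDIA3 not in the table. The ER stress response element, CCAAT and CCACG with 9 bases of any kind between them, is the element through which ATF6 and XBP1 are known to act. It was searched on both strands in the 250 bases before each start site. It was found exactly in 7 of the 31 members, HSPA5, HSP90B1, PDIA6, CALR, CANX, CRELD2 and XBP1. Of all 27305 genes with a promoter entry 0.0916% held it, and of all 35116 promoter windows 0.074%. These stretches are shown because most are chaperone genes whose promoters share the letters of an element of the sensors. HSP90B1 holds a further copy, not shown. Each reads 5′ to 3′ along the gene's strand with the element, or its reverse complement, in capitals.
HSPA5, chr9:125241371-125241429, minus strand: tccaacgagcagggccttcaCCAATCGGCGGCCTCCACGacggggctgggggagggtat
HSP90B1, chr12:103930301-103930359, plus strand: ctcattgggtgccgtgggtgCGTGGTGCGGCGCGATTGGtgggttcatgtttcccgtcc
CALR, chr19:12938364-12938422, plus strand: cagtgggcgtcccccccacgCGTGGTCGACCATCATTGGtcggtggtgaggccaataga
CRELD2, chr22:49918534-49918592, plus strand: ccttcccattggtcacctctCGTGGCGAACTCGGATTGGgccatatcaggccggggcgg
XBP1, chr22:28800583-28800641, minus strand: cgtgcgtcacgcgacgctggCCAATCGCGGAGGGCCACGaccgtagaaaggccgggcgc
PDIA6, chr2:10812848-10812876, minus strand: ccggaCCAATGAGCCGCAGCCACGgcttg
CANX, chr5:179698773-179698801, plus strand: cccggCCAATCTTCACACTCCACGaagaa

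The composite element bound by ATF4 with C/EBP proteins was searched as TGATGNAAN on both strands in the same windows. It was found in 4 of the 31 members, ASNS, ATF3, CHAC1 and HERPUD1, and in 3.87% of all genes and 3.13% of all windows. It is shown for the ATF4 targets whose values are set against the chaperones.
ASNS, chr7:97872463-97872481, minus strand: aggcaTGATGAAACttccc
CHAC1, chr15:40953241-40953289, plus strand: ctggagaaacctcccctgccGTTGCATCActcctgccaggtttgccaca
ATF3, chr1:212565196-212565244, plus strand: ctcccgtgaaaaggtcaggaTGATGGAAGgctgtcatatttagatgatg
A further element of XBP1 and ATF6, TGACGTGG, was in HYOU1 and in 0.78% of genes and 0.612% of windows. The cyclic AMP element TGACGTCA was in CREB3L2 and in 2.03% of genes and 1.65% of windows. A match is a run of letters and not a shown binding site.

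With the authors' scaling, 7 members fell and 3 rose in quiescent cells, 23.3% and 10% of the 30 tested, by limma at an adjusted p under 0.05. Of all genes tested, 27.7% were called, 15.4% lower and 12.2% higher. The 7 that fell were 6 ER folding genes, FKBP11, DNAJB11, SDF2L1, CALR, PDIA3 and MANF, and the ATF4 target ASNS. Those that rose were the sensors ATF6 and ERN1 and the degradation gene EDEM1. The median log2 difference, quiescent minus cycling, was −0.15 over the members and 0.08 over all genes tested, and 20 of 30 members lay below the median gene. Centring the arrays on their medians lowers every log2 difference by 0.41 and gives 0 higher and 16 lower members, against 2.8% and 32.5% of all genes. Quantile normalization gives 4 higher and 6 lower, against 10.5% and 16.4%. Under all 3 scalings, 6 members were called lower and 0 higher, against 14.1% and 2.74% of all genes. The 6 were the genes that fell with the authors' scaling, without MANF.

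**Figure D1:**
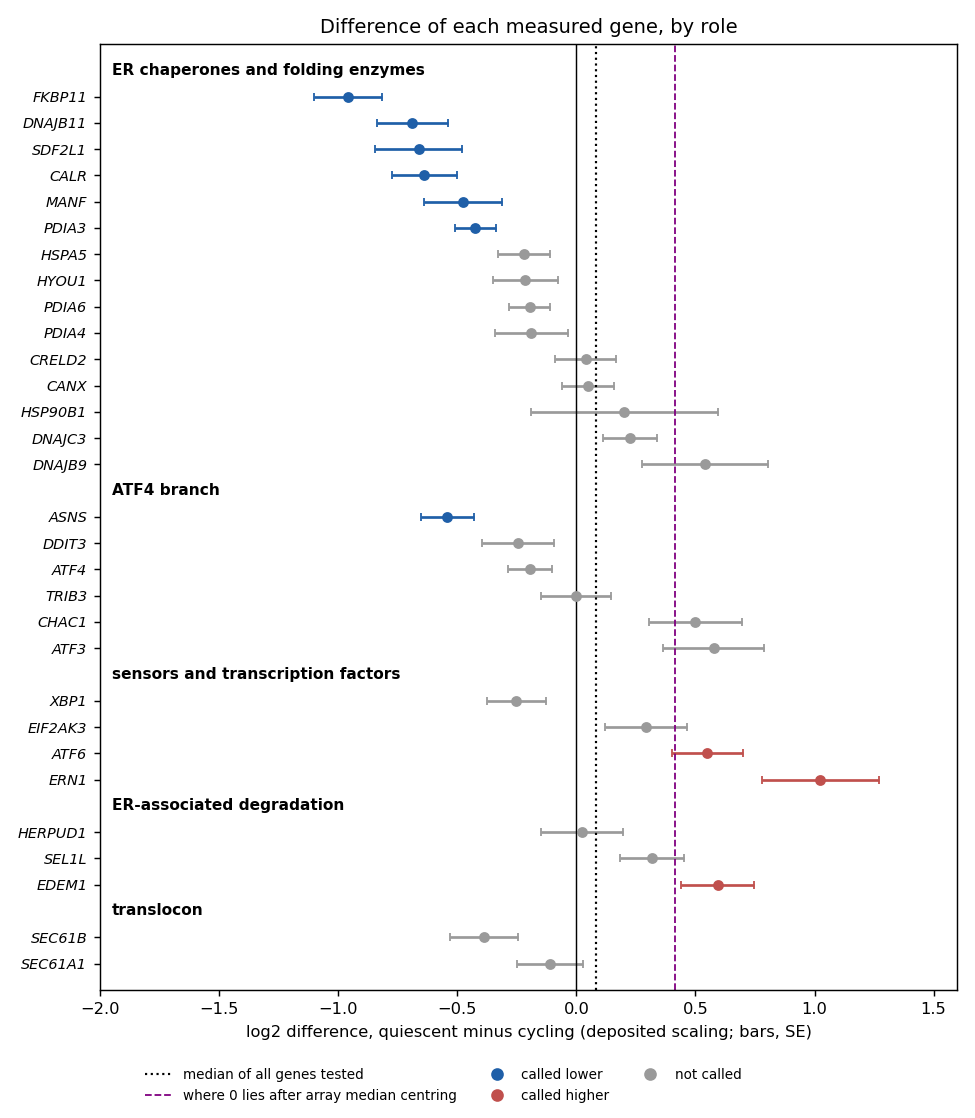
Log2 difference, quiescent minus cycling, of the 30 tested genes on the authors' scaling with its SE as bars, grouped by role, with called genes in colour. Folding genes fill the lower end down to FKBP11 at −0.96 and ERN1 stands at the upper end at 1.02. The dotted line marks the median of all genes tested, 0.08, and the dashed line where 0 lies after array median centring.

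ER chaperones and folding enzymes were the largest group, with all 15 measured and tested. In quiescent cells 6 of them fell and 0 rose, or 40% lower against 15.4% of all genes, and their median log2 difference was −0.21. Of the 15, 12 lay below the median gene. Array median centring called 10 lower (66.7%) and 0 higher, against 32.5% and 2.8% of all genes. Quantile normalization called 5 lower and 1 higher, the HSP40 co-chaperone DNAJC3, against 16.4% and 10.5% of all genes. Of 9 measured plasma cell markers, 7 passed the filter, 3 fell (TNFRSF17, MZB1 and FKBP11, itself one of the chaperones here) and 1 rose (DERL3). That is 42.9% lower and 14.3% higher, against 15.4% and 12.2% of all genes. JCHAIN was at 11108 and 13597 and IRF4 at 117 and 199 on cycling and quiescent arrays. XBP1, also a member of the set, was at 4392 and 3714, and none of these was called. The summed intensity of the 9 markers was 23632 to 26933 on cycling and 18139 to 26845 on quiescent arrays, ranges that overlap. JCHAIN, with its higher mean on quiescent arrays, is the largest term of that sum. The defining markers SDC1 and PRDM1 had group means of 48.5 to 108 and did not pass. The part of these markers in the folding genes' differences was not tested.

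FKBP11, a peptidyl-prolyl isomerase of the secretory pathway, measured 2675, 2172, 2559.9 and 2435 on cycling arrays (samples 1 to 4). On the quiescent arrays it measured 1559, 1251, 1129 and 1153. Every quiescent array lay below every cycling array, as in 15.4% of all genes. The log2 difference was −0.96 (SE 0.14, limma adjusted p = 0.000376), or 1.94-fold lower, the largest fall among the tested members as read from their brightest probe sets. Averaged over its probe sets the difference was −0.47 and still passed (limma adjusted p = 0.0337), smaller than those of DNAJB11, SDF2L1 and ASNS. Of its 2 dimmer probe sets that passed the filter, neither was called, and they had log2 differences of −0.79 and 0.32.

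DNAJB11, the ERdj3 co-chaperone that hands unfolded proteins to BiP, measured 3609.9, 3195, 4634 and 3066 on cycling arrays. On quiescent arrays it measured 2359, 2291, 1930.1 and 2333, without overlap (log2 difference −0.69, SE 0.15, limma adjusted p = 0.0042). Its quiescent values were close together, with sample 3 lowest, while cycling sample 3 was the highest of its group. SDF2L1, which binds DNAJB11 in a chaperone complex, measured 1591, 1068, 1548 and 1636 on cycling arrays. It measured 984, 686, 1067 and 952 on quiescent arrays (log2 difference −0.66, SE 0.18, limma adjusted p = 0.0166). Sample 2 was the lowest of both groups, and cycling sample 2 lay only just above the highest quiescent array, sample 3. Without cycling sample 3 or 4, SDF2L1 no longer passed (limma adjusted p = 0.0507 and 0.0554).

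CALR encodes calreticulin, the soluble lectin chaperone that also buffers calcium, and it carries the exact ER stress element shown above. It measured 5077, 5176, 4917 and 5684 on cycling arrays and 4314, 2944, 3224 and 3054 on quiescent arrays. The groups did not overlap, with quiescent sample 1 the nearest to the cycling arrays (log2 difference −0.64, SE 0.14, limma adjusted p = 0.00395). Its 2 dimmer probe sets were lower too, by −0.21 and −0.31, but did not pass, and the average over the 3 was −0.39 (limma adjusted p = 0.0397). PDIA3, the disulphide isomerase that works with calreticulin and calnexin, measured 20647, 18505, 20218 and 21539 on cycling arrays. On quiescent arrays it measured 14660.4, 15389.5, 15451 and 14709, a narrow range clear of the cycling arrays (log2 difference −0.42, SE 0.09, limma adjusted p = 0.00285). CANX, the membrane-bound lectin partner of the same cycle, showed no such gap. It measured 15897 ± 1529 on cycling and 16481 ± 1915 on quiescent arrays (SD, n = 4 each; log2 difference 0.05, SE 0.11, limma adjusted p = 0.763, and −0.36 after array median centring, not called).

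MANF, a secreted and ER-resident factor that binds BiP, measured 4824, 3269, 4630.0 and 4298 on cycling arrays. On quiescent arrays it measured 3581, 2317, 3187 and 3174. Sample 2 was again the lowest of both groups, and quiescent sample 1 lay above cycling sample 2. The fall of 0.48 on the log2 scale barely passed (SE 0.16, limma adjusted p = 0.045) and did not pass under quantile normalization (0.0911) or without any of 6 single arrays, cycling sample 1, 3 or 4 or quiescent sample 2, 3 or 4 (0.076 to 0.119).

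The central chaperone HSPA5, which encodes BiP, did not pass. It measured 16301, 16139, 18382 and 15955 on cycling arrays and 13728, 12429.9, 14499 and 16954 on quiescent arrays. Quiescent samples 1 to 3 lay below every cycling array, and quiescent sample 4 above all but cycling sample 3 (log2 difference −0.22, SE 0.11, limma adjusted p = 0.148). After array median centring HSPA5 was called lower, at −0.63 (limma adjusted p = 0.00573). HYOU1, the large HSP70-like exchange factor for BiP, PDIA4 and PDIA6, both disulphide isomerases, had log2 differences of −0.21, −0.19 and −0.20. None of these 3 passed with the authors' scaling, and all 3 were called lower after array median centring. PDIA6 has 3 other probe sets that passed the filter, all lower, and 1 of them was called (log2 difference −0.47, limma adjusted p = 0.0125, taken over all probe sets).

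HSP90B1, the ER form of HSP90, had the largest SE of the 15. Another 2 probe sets, both brighter, are annotated to HSP90B1 together with a microRNA gene and were not used. It measured 1709, 508, 1533 and 736 on cycling arrays and 1473, 607, 1257 and 1519.6 on quiescent arrays. Sample 2 was low in both groups, and the groups overlapped fully (log2 difference 0.20, SE 0.39, limma adjusted p = 0.735). This probe set, like those of CALR and PDIA6, is of a design that Affymetrix marks as open to cross-hybridisation.

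DNAJB9 and DNAJC3, co-chaperones induced in ER stress, leaned the other way. DNAJB9, or ERdj4, measured 8919, 20616, 16604 and 18879 on cycling arrays and 14462, 26282, 29049 and 23237 on quiescent arrays. Its 3 higher quiescent arrays lay above every cycling array, but sample 1 was low in both groups (log2 difference 0.54, SE 0.26, limma adjusted p = 0.153). DNAJC3, an inhibitor of PERK as well as a co-chaperone, differed by 0.23 on the log2 scale (SE 0.11, limma adjusted p = 0.157), and −0.19 after array median centring, not called. CRELD2, a stress-induced ER protein, was at 2295 ± 118 and 2371 ± 306 (SD, n = 4 each; log2 difference 0.04, and −0.37 after array median centring, not called in either).

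**Figure D2:**
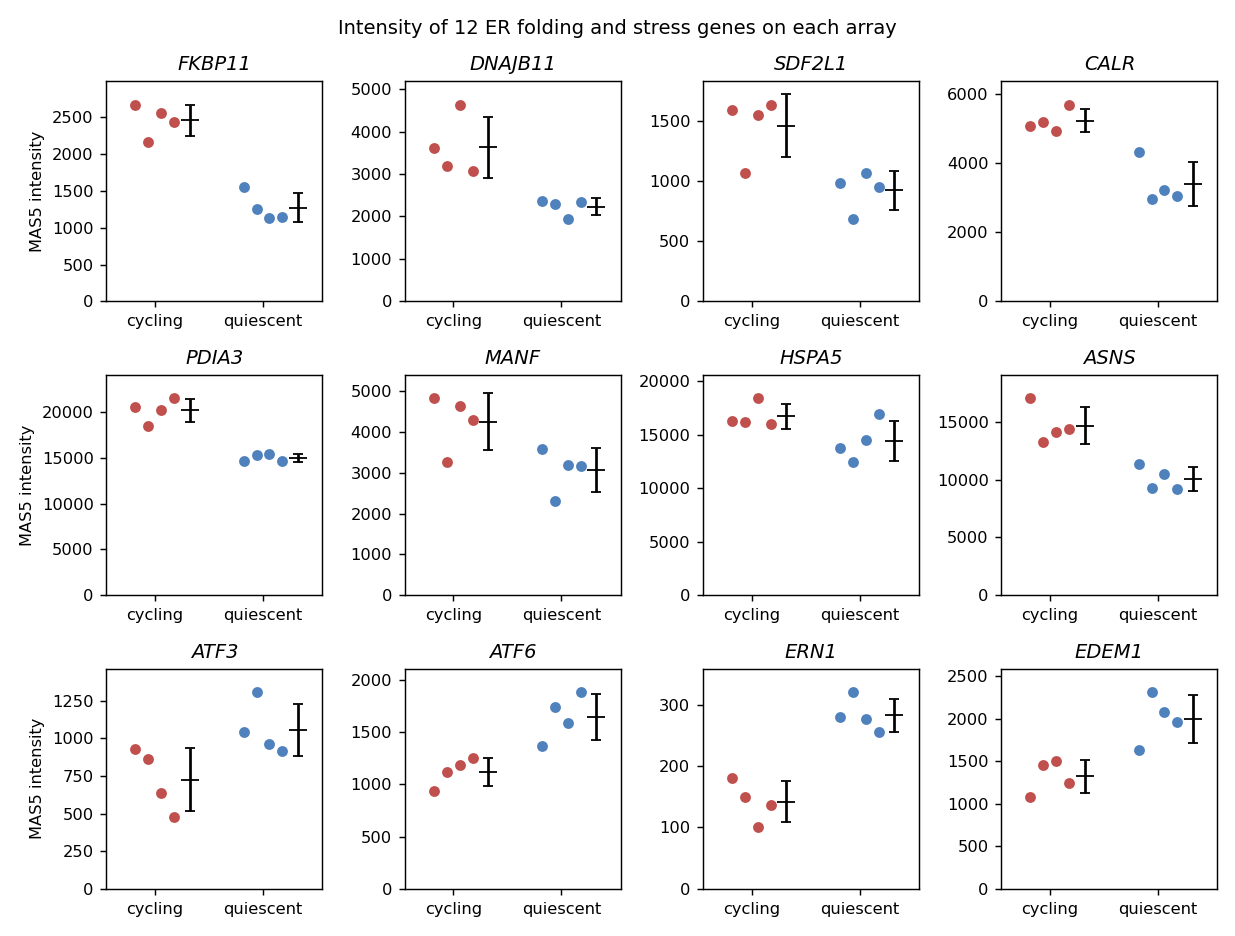
MAS5 intensity (linear axis from 0) of 12 genes on each of the 4 cycling and 4 quiescent arrays, in the order of sample numbers, with mean and SD beside the points. FKBP11, DNAJB11, CALR, PDIA3 and ASNS separate with the quiescent arrays lower, and SDF2L1 only just does. ATF6, ERN1 and EDEM1 separate with the quiescent arrays higher, and HSPA5, MANF and ATF3 overlap. The panels include every member called with the authors' scaling. CHAC1 and XBP1, not called and not shown, separate too. Of all genes tested, 15.4% separate with the quiescent arrays lower and 13.3% with them higher.

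The 6 ATF4-branch genes did not move together. ASNS fell, 0 rose, and 4 of 6 lay below the median gene. That is 16.7% lower, near the 15.4% of all genes. Their median log2 difference was −0.10, against −0.21 for the chaperones and 0.08 for all genes. Array median centring called 3 lower, ASNS, ATF4 and DDIT3, or 50% against 32.5% of all genes. Quantile normalization called ASNS alone, with 16.4% of all genes called lower.

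ASNS, asparagine synthetase, measured 17048, 13244, 14124 and 14374 on cycling arrays. On quiescent arrays it measured 11349.8, 9271, 10534 and 9195, below all cycling arrays (log2 difference −0.54, SE 0.11, limma adjusted p = 0.00321). ASNS was called lower with each scaling and without each array in turn. ATF4, the transcription factor itself, measured 13723, 15817, 15853 and 15437 on cycling arrays and 12616, 13215, 14298 and 12938 on quiescent arrays. Quiescent sample 3 alone lay above a cycling array, sample 1 (log2 difference −0.20, SE 0.09, limma adjusted p = 0.133).

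DDIT3, which encodes the death-promoting factor CHOP, measured 3924, 5228, 4577 and 4903 on cycling arrays. Quiescent values were 3019, 3779, 4527 and 4514, short of the threshold (log2 difference −0.25, SE 0.15, limma adjusted p = 0.247). Sample 1 was lowest in both groups, and quiescent samples 3 and 4 lay inside the cycling range. TRIB3, a pseudokinase that restrains AKT and is induced by ATF4 and CHOP, measured 3144 ± 322 on cycling and 3165 ± 539 on quiescent arrays (SD, n = 4 each). Its log2 difference was −0.0008 (SE 0.15), and it changed sign under quantile normalization without being called.

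ATF3, a stress-induced repressor, and CHAC1, which breaks down glutathione, were the ATF4-branch genes with the highest differences. ATF3 measured 931, 860.2, 636 and 476 on cycling arrays and 1039, 1307, 965 and 917 on quiescent arrays. Only quiescent sample 4 lay under a cycling array, sample 1 (log2 difference 0.58, SE 0.21, limma adjusted p = 0.06). CHAC1 measured 328, 431, 383 and 400.3 on cycling arrays and 463, 438, 615 and 694 on quiescent arrays. Its groups did not overlap, as in 13.3% of all genes in that direction, yet it did not pass (log2 difference 0.50, SE 0.19, limma adjusted p = 0.0738). After array median centring the differences of ATF3 and CHAC1 were 0.16 and 0.09.

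Set against each other on the same array, the 15 chaperones lay lower relative to the 6 ATF4-branch genes in quiescent cells. The mean log2 intensity of the 15 chaperones minus that of the 6 ATF4-branch genes was 0.79, 0.53, 0.86 and 0.78 on cycling arrays and 0.62, 0.45, 0.42 and 0.46 on quiescent arrays. Its starting level depends on the probe sets and carries no meaning, and only its change is read. Cycling sample 2 was the 1 cycling array inside the quiescent range. The means were 0.74 ± 0.14 and 0.49 ± 0.09 (SD, n = 4 each), a change of −0.26. No p is given, since the genes were chosen with earlier results of these arrays known. The ATF4-branch mean averages genes that went opposite ways, from −0.54 for ASNS to 0.58 for ATF3. The further lists described below did not show the same order. On the authors' scaling the median was −0.09 over 26 other folding and oxidation enzymes and −0.19 over 32 other ATF4 and amino acid response genes. Under quantile normalization these medians were −0.15 and −0.11.

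On the authors' scaling the chaperone term carried most of this change. Its mean log2 was 12.33 ± 0.11 on cycling and 12.09 ± 0.09 on quiescent arrays, while the ATF4-branch mean was 11.59 ± 0.05 and 11.61 ± 0.08 (SD, n = 4 each). Cycling sample 2, at 12.18, lay level with quiescent sample 1. Over all genes tested the mean was 9.51 ± 0.06 and 9.56 ± 0.01. Being a difference within an array, the contrast is the same under array median centring, but its terms are not, at −0.65 for the chaperones and −0.40 for the ATF4 branch. It was −0.23 under quantile normalization. Leaving out HSP90B1, a setting chosen after the values were seen, gave −0.29. The groups then did not overlap, at 0.76 to 0.99 on cycling and 0.55 to 0.74 on quiescent arrays. Averaging all probe sets of each gene reduced it to −0.14.

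**Figure D3:**
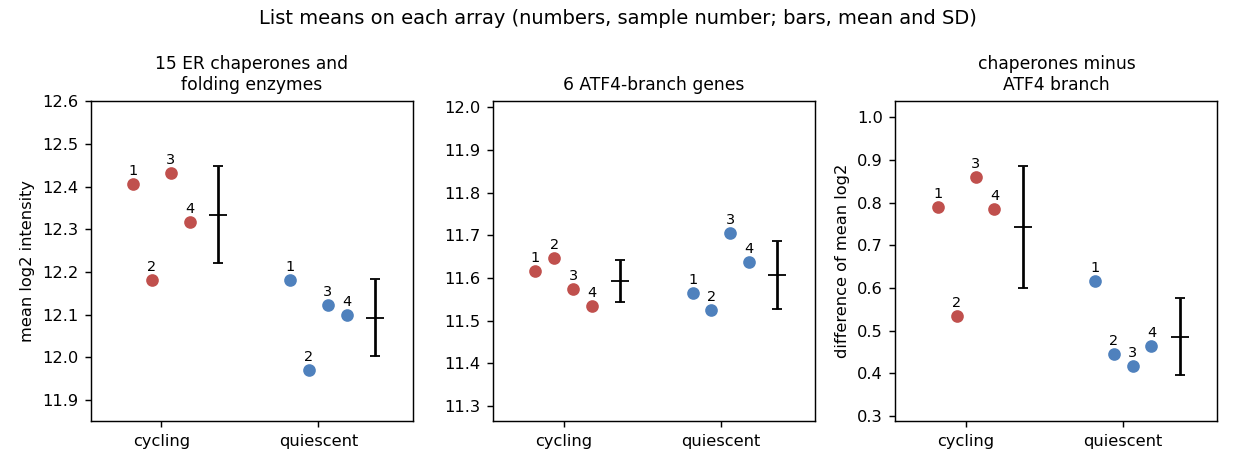
Mean log2 intensity on each array of the 15 ER chaperones and folding enzymes (left), of the 6 ATF4-branch genes (middle) and their difference (right), with mean and SD, and axes of equal span. The chaperone mean is 12.33 on cycling and 12.09 on quiescent arrays, the ATF4-branch mean 11.59 and 11.61, and cycling sample 2 lies within the quiescent arrays in the right panel.

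Of the 4 tested sensors and transcription factors, ATF6 and ERN1 rose, EIF2AK3 and XBP1 did not pass, and 0 fell. That is 50% higher, against 12.2% of all genes, in a group of only 4. None of the 4 was called higher after array median centring, against 2.8% of all genes, and only XBP1 was called lower, against 32.5%. ERN1, which encodes the sensor IRE1 alpha, measured 181, 149, 100.3 and 137 on cycling arrays. It measured 279.5, 320.1, 276 and 256 on quiescent arrays, all above the cycling arrays (log2 difference 1.02, SE 0.24, limma adjusted p = 0.00766). The 2.03-fold difference is the largest rise among the members, though the cycling values are near the filter intensity of 83.3. Another of its probe sets was called higher as well (log2 difference 1.23, limma adjusted p = 0.0188, taken over all probe sets). Its remaining one had 0.40 and did not pass. After array median centring ERN1 remained positive at 0.61 but did not pass (limma adjusted p = 0.0705).

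ATF6, the sensor that becomes a transcription factor after cleavage, measured 934, 1117, 1185 and 1248 on cycling arrays. On quiescent arrays it measured 1364, 1736, 1589 and 1881, without overlap (log2 difference 0.55, SE 0.15, limma adjusted p = 0.0151). It did not pass without quiescent sample 4 (0.0543), or as the mean over its probe sets (0.0787), of which 1 differed by −0.09. After array median centring its difference was 0.14 and was not called. EIF2AK3, which encodes PERK, measured 1471 ± 278 and 1795 ± 293 (SD, n = 4 each; log2 difference 0.29, SE 0.17, limma adjusted p = 0.229), and turned to −0.12 after array median centring, not called.

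XBP1, the factor activated by IRE1, measured 4314, 4339.6, 4451 and 4465 on cycling arrays and 4056, 3151, 3441 and 4208 on quiescent arrays. The groups did not overlap, as in 15.4% of all genes in that direction, with the cycling arrays close together and the quiescent arrays spread. It did not pass with the authors' scaling (log2 difference −0.25, SE 0.12, limma adjusted p = 0.146). It was called lower after array median centring, at −0.66 (limma adjusted p = 0.00574). A much dimmer probe set of XBP1, at 97.6 and 151, had a log2 difference of 0.79 and was not called. With it, the mean over probe sets was positive, also not called. XBP1 is induced by ATF6, and its promoter holds the exact ER stress element.

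Among the 3 tested genes of ER-associated degradation, which extracts misfolded proteins to the proteasome, EDEM1 rose and 0 fell. That is 33.3% higher, against 12.2% of all genes, in a group of only 3. EDEM1, a lectin that marks glycoproteins for removal, measured 1085, 1455, 1505 and 1242 on cycling arrays. It measured 1628, 2309, 2072 and 1965 on quiescent arrays, all above the cycling arrays (log2 difference 0.59, SE 0.15, limma adjusted p = 0.012). It was called higher under quantile normalization too, and not after array median centring, where the difference was 0.18. SEL1L, the scaffold of the main degradation complex, measured 1724 ± 185 and 2148 ± 213 (SD, n = 4 each; log2 difference 0.32, limma adjusted p = 0.0922, and −0.10 after array median centring). HERPUD1, a stress-induced part of the same complex, ranged from 20388 to 32266 on cycling and 20982 to 34708 on quiescent arrays, with sample 1 lowest in both (log2 difference 0.02, and −0.39 after array median centring, not called in either). A dimmer probe set of HERPUD1 was called higher (log2 difference 0.71, limma adjusted p over all probe sets 0.0337).

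The 2 subunits of the Sec61 channel, through which new proteins enter the ER, did not pass. SEC61B measured 5799, 4127, 4671 and 4848 on cycling arrays and 4369, 3025, 3667 and 3808 on quiescent arrays. Only quiescent sample 1 reached into the cycling range (log2 difference −0.39, SE 0.14, limma adjusted p = 0.0609). A much dimmer probe set of SEC61B, at 86.8 and 157, had a log2 difference of 1.09 and was not called. SEC61A1, the pore subunit, differed by −0.11 on the log2 scale (SE 0.14, limma adjusted p = 0.582). Both were called lower after array median centring, as were 32.5% of all genes.

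Of the 7 members that carry the exact ER stress element, CALR fell and the other 6 did not pass with the authors' scaling. Of all genes, 15.4% fell. The log2 differences of the 7 ran from −0.64 for CALR and −0.25 for XBP1 to 0.05 for CANX and 0.20 for HSP90B1. After array median centring HSPA5, PDIA6, CALR and XBP1 were called lower, and HSP90B1, CANX and CRELD2 were not, against 32.5% of all genes called lower. FKBP11, DNAJB11, SDF2L1 and MANF, which also fell, hold no exact match in this window. Among the 4 with the ATF4 element, ASNS had −0.54, HERPUD1 0.02, CHAC1 0.50 and ATF3 0.58, so that genes sharing those letters spanned the range of the branch.

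Genes of the pathway outside the set were taken from 5 lists, with 131 of 152 listed genes tested. In quiescent cells 26 of them fell and 7 rose with the authors' scaling, 70 and 0 after array median centring, and 25 and 13 under quantile normalization. With the authors' scaling that is 19.8% lower and 5.34% higher, against 15.4% and 12.2% of all genes, and after centring 53.4% lower against 32.5%. Of 29 genes for entry into the ER and N-glycosylation, 9 fell (31.0%) and 0 rose, with a median of −0.21. SRP19 of the signal recognition particle fell from 1996 ± 378 to 1103 ± 179, and RPN2 and DDOST of the oligosaccharyltransferase fell by 0.73 and 0.67 on the log2 scale. Of 26 other folding and oxidation enzymes, 4 fell (15.4%, the same share as of all genes) and 1, ERP44, rose, with a median of −0.09. PRDX4, an ER peroxidase, fell from 4053 ± 628 to 2505 ± 254 (SD, n = 4 each group). UGGT1, which returns misfolded glycoproteins to the calnexin cycle, fell by 0.61 on the log2 scale. FKBP7, an ER isomerase, fell by 0.87 but was dim, at 332 ± 91 and 188 ± 74 (SD, n = 4 each). Its groups overlapped and it barely passed (limma adjusted p = 0.0458).

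Of 24 other degradation genes, 3 fell and 3 rose, 12.5% each way and near the shares of all genes, with a median of −0.05. VCP, the ATPase that pulls proteins out of the membrane, fell from 3274 ± 509.5 to 1915 ± 116 (SD, n = 4 each), and its cofactors UFD1 and UBXN8 fell by 0.81 and 0.61. The ligase MARCHF6, HERPUD2 and DERL3 rose by 0.49, 0.59 and 0.59 on the log2 scale. Of 32 other ATF4 and amino acid response genes, 8 fell (25.0%) and 2 rose (6.25%), with a median of −0.19. PSAT1 of serine synthesis fell from 8626 ± 1382 to 3681 ± 232 (SD, n = 4 each; log2 difference −1.22), and PCK2 and the tRNA synthetase EPRS1 fell by 0.61 and 0.57. The transcription factor CEBPG rose by 0.35 and KLHL24 by 0.64.

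Of 20 other sensor and eIF2 pathway genes, 2 fell and 1 rose, 10% and 5%, below the shares of all genes, with a median of 0.007. EIF2S1, the eIF2 alpha subunit that PERK phosphorylates, fell from 5586 ± 927 to 2355 ± 450.1 (SD, n = 4 each; log2 difference −1.25, limma adjusted p = 0.000159). RTCB, the ligase that joins XBP1 mRNA after IRE1 has cut it, fell from 3443 ± 268 to 2200.1 ± 293 (SD, n = 4 each; log2 difference −0.65). PPP1R15B, a subunit of the eIF2 alpha phosphatase, rose by 0.59. ERP44, MARCHF6, HERPUD2, DERL3, CEBPG, KLHL24 and PPP1R15B were named after their values were seen, and none was called after array median centring.

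**Figure D4:**
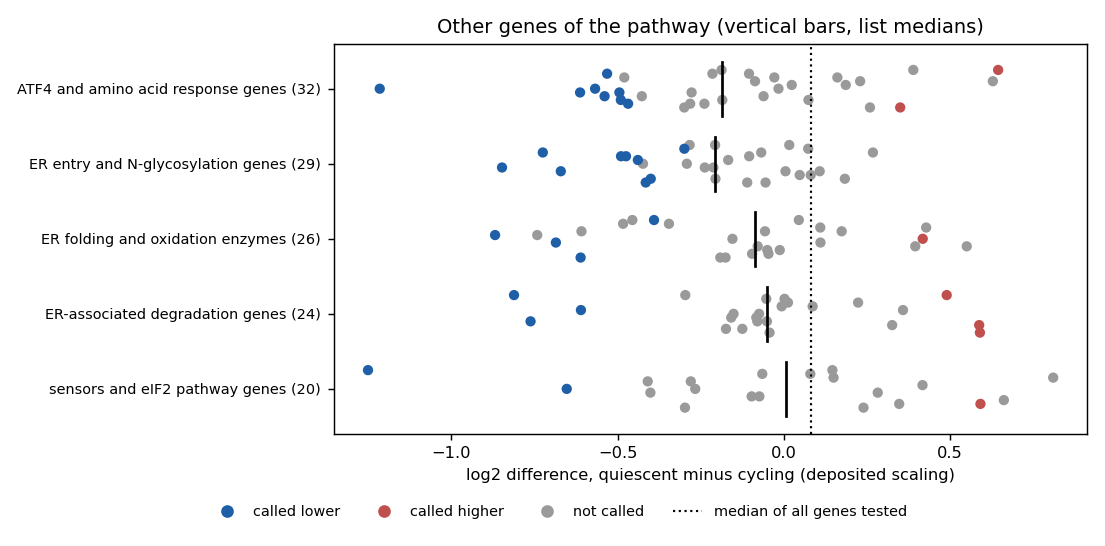
Log2 difference, quiescent minus cycling, on the authors' scaling of the 131 tested genes in 5 further pathway lists, with called genes in colour, list medians as vertical bars and the number tested in parentheses. The ER entry and ATF4 lists hold 9 and 8 genes called lower, and the medians run from −0.21 to 0.007, below the 0.08 of all genes (dotted line).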

How the data were processed

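RNA of 8 samples was measured on Affymetrix human arrays. The authors deposited linear-scale intensity values, made with MAS5 per the submitters' processing notes, with no version given. The values themselves show a common scaling, since the mean of every array without its top and bottom 2% is 500.1. Array medians ran from 71.9 to 113.4. GEO's platform annotation named them (41091 probe sets with 1 symbol, 1801 with several, 11777 unlisted), and only those with 1 were used. Log2 was taken with a floor of 1, without further scaling, since array medians lie at dim probe sets. Centring on them is an alternative. A filter at the median over non-control probe sets (intensity 83.3, on mean log2) removed 8097 genes.

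The comparison used limma 3.58.1 (R 4.3.3), lmFit then eBayes with a trend and robust variances, with Benjamini-Hochberg adjustment over all 11678 genes and a threshold of 0.05. The test was tried on simulated data. Control ratios were compared by exact permutation over 70 assignments. Motifs and plots were made with Python 3.11.15 and matplotlib 3.10.9. Members and lists were chosen with earlier results of these data known. Named genes are all members and up to 3 genes per further list, those with the largest difference among genes called alike under 3 scalings. Alternatives tried were other scalings, filters, an added constant of 32, plain eBayes, means over probe sets, a replicate block and leaving out each array.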

Additional observations from a re-analysis of the deposited data

Results flagged for a closer look

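In 4 of the 66 sets of 4 arrays examined, 1 array stood apart from the other 3 by a gap that exceeds Dixon's 95% critical value for 4 samples, taken on the log2 scale. Chance flags about 1 in 20 such sets. HSPA5 was highest on cycling sample 3, at 18380, with the other cycling arrays between 15950 and 16300. HYOU1 was lowest on quiescent sample 3, at 1236, with the others between 1440 and 1483. DNAJB11 was lowest on the same array, at 1930, with the others between 2291 and 2359. SDF2L1 was lowest on cycling sample 2, at 1068, with the others between 1548 and 1636.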

How the results depend on the processing

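With array median centring, 327 genes were higher and 3795 lower, 0 members higher and 16 lower, 10 chaperones and 3 ATF4-branch genes lower, and 0 other pathway genes higher and 70 lower. That setting shifts every difference by −0.41 by construction. It turned 7 members that were not called, HSP90B1 to −0.21, DNAJC3 to −0.19, CANX to −0.36, CRELD2 to −0.37, EIF2AK3 to −0.12, HERPUD1 to −0.39 and SEL1L to −0.10. Quantile normalization called 1 chaperone and 13 other pathway genes higher and turned TRIB3 to 0.077. Without a filter 3 other pathway genes were higher. With the filter at the 75th percentile 1 ATF4-branch gene, ATF3, was higher. Means over probe sets turned XBP1 to 0.27 and SEC61B to 0.35, neither called. Centring on the median of the genes tested, chosen after seeing the data, turned TRIB3 to 0.0074 and called 6 members lower and 3 higher.

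Leaving out each array in turn gave 2 to 4 members higher and 5 to 8 lower, 0 to 1 chaperones higher and 4 to 6 lower, and 0 to 1 ATF4-branch genes higher (1 without cycling sample 1 or 2 or quiescent sample 2). The 1 chaperone came without quiescent sample 1. It gave 945 to 1697 genes higher and 1419 to 1900 lower, the 945 without quiescent sample 3. Other pathway genes were 2 to 6 higher (2 without cycling sample 3, 3 without quiescent sample 3, 4 without quiescent sample 1 or cycling sample 4) and 16 to 29 lower (16 without cycling sample 1, 17 without cycling sample 3). The chaperone change against the ATF4 branch ran from −0.33 to −0.22. Differences changed sign for TRIB3 (−0.083 to 0.11), HERPUD1 (−0.12 to 0.16), CANX (−0.022 to 0.11), HSP90B1 (−0.12 to 0.51) and CRELD2 (−0.026 to 0.11), none of them called.

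Same-numbered arrays deviated together with correlations of 0.344, 0.196, 0.11 and 0.0361, all positive. Those of differently numbered arrays ran from −0.166 to 0.138. Quiescent samples 3 and 4 correlated best with another number, and the main fit did not take the numbers as pairs. A fit with the replicate block called 7 members higher and 8 lower, against 2002 and 2232 of all 11678 genes. Without the block 1430 and 1802 of all genes were called. The block added DNAJB9, ATF3, CHAC1 and SEL1L as higher and SEC61B as lower and lost none. In that fit 1 chaperone and 2 ATF4-branch genes were higher, and 13 other pathway genes were higher and 37 lower. The number of arrays and the dim values of ERN1 limit precision. The cause of shifts other than the centring constant was not tested.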

Other observations

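The sensors and degradation genes lay higher relative to the chaperones on quiescent arrays. This grouping was chosen after the values were seen and has no test. The mean log2 intensity of the 7 tested sensor and degradation genes minus that of the 15 chaperones ran from −1.75 to −1.27 on cycling arrays and from −1.19 to −0.73 on quiescent arrays, without overlap. On the authors' scaling the chaperone mean was 12.33 and 12.09 and the sensor and degradation mean 10.81 and 11.18. Array median centring leaves the difference between them as it is but puts the change of the sensor and degradation mean at −0.05 and that of the chaperone mean at −0.65.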
